A study of Homo sapiens with 6 samples.

Results

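Transcript levels of 42 genes for the translation initiation factors were examined in LX-2 cells, an established human hepatic stellate cell line, with and without overexpression of fibroblast activation protein α (FAPα). The genes were those whose symbol is on a list of initiation factors, and all 42 were found among the 60748 genes of the deposited table. The 2 groups were cells carrying the empty vector (LX-2Vector, n = 3) and cells overexpressing FAPα (LX-2FAP, n = 3), and the labels give 24 h of culture for both. The FAPα construct came in a lentiviral vector with a ubiquitin promoter, together with green fluorescent protein and puromycin resistance, and stable clones were selected with puromycin, so the groups compare stably transduced cells and not an acute induction. Whether each group holds several clones, and whether the 3 libraries of a group came from separate cultures, is not given in the sources used here. The p-values therefore measure the spread between these libraries, which may be technical.

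Initiation is the step at which a ribosome is loaded onto an mRNA and finds its start codon. The eIF4F complex binds the cap of the mRNA through eIF4E, unwinds it with the helicase eIF4A and holds both on the scaffold eIF4G, while eIF3 keeps the small ribosomal subunit ready and eIF2 brings the initiator tRNA. eIF1, eIF1A and eIF5 govern scanning and start codon selection, eIF2B recharges eIF2 with GTP, and eIF5B joins the large subunit. In activated stellate cells, which make much extracellular matrix protein, this machinery is the route by which growth factor signals through mTORC1 reach protein synthesis.

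The libraries held 17355700 to 26352060 counts. Levels are given as CPM, counts scaled to the effective library size, and in a principal component analysis of log2 CPM the leading component (36.2% of the variance) set LX-2FAP replicate 1, at 1.91, closest to the LX-2Vector libraries at -20.7 to -11.6, with the other two at 17 and 25.4. The 10 stellate cell markers summed to 402 to 439 FPKM (counts scaled to both gene length and library size) in each library, but mostly through VIM, with 312.1 FPKM over the 6 libraries, and the defining markers COL1A2 and DES were near 0, at 0.103 and 0.0122 FPKM. Within this sum the markers moved in opposite directions, with VIM higher after FAPα (called at a log2 fold change of 0.13, adjusted p = 0.0372 by edgeR) and the collagens COL1A1 (-0.40, 0.0135) and COL3A1 (-0.69, 0.00765) and the receptor PDGFRB (-0.38, 0.0269) called lower, out of 9 stellate markers tested. The part of these marker changes in the results on the initiation factors was not tested. Summed over 4 markers each, hepatocyte genes lay between 0.0206 and 0.0704 FPKM, endothelial genes between 0.645 and 1.04 FPKM, leukocyte genes between 2.58 and 5.29 FPKM and epithelial genes between 0.338 and 1.1 FPKM, and of the 6 of these 16 genes that passed the filter VWF alone was called, lower in LX-2FAP (adjusted p = 0.0268 by edgeR). FAP, the overexpressed gene, had 42 to 55 counts in every LX-2Vector library and 14805 to 15160 in every LX-2FAP library, as the labels state.

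The initiation factor genes that passed the test were all higher in LX-2FAP, and by small amounts. EIF1AX, EIF5, EIF2S1, EIF2B3 and EIF5B rose by 1.11-fold to 1.195-fold, and no member was called lower. Of the 42 genes, all of which passed the filter on low counts, 5 were called higher and 0 lower by the quasi-likelihood test of edgeR at an adjusted p under 0.05, that is 11.9% of the members, where 5.29% of all 18275 tested genes were called, 2.57% higher and 2.73% lower. By deposited FPKM, calls were made in 4 of 19 members above 30, 1 of 13 at 10 to 30 and 0 of 10 up to 10. The shares over all tested genes, here and below, were not matched on level. The member genes were chosen with earlier results of these data known, so these shares are a description only. At an unadjusted p under 0.05 in the same test, 17 members were higher and 0 lower, where 10.5% of all tested genes were higher and 11.6% lower. The log2 fold changes of the members ran from -0.12 to 0.28 with a median of 0.088, and the median over all tested genes was -0.013. Because RNA was taken in bulk, a change in the number of cells with a given level and a change in RNA per cell cannot be told apart.

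**Figure D1:**
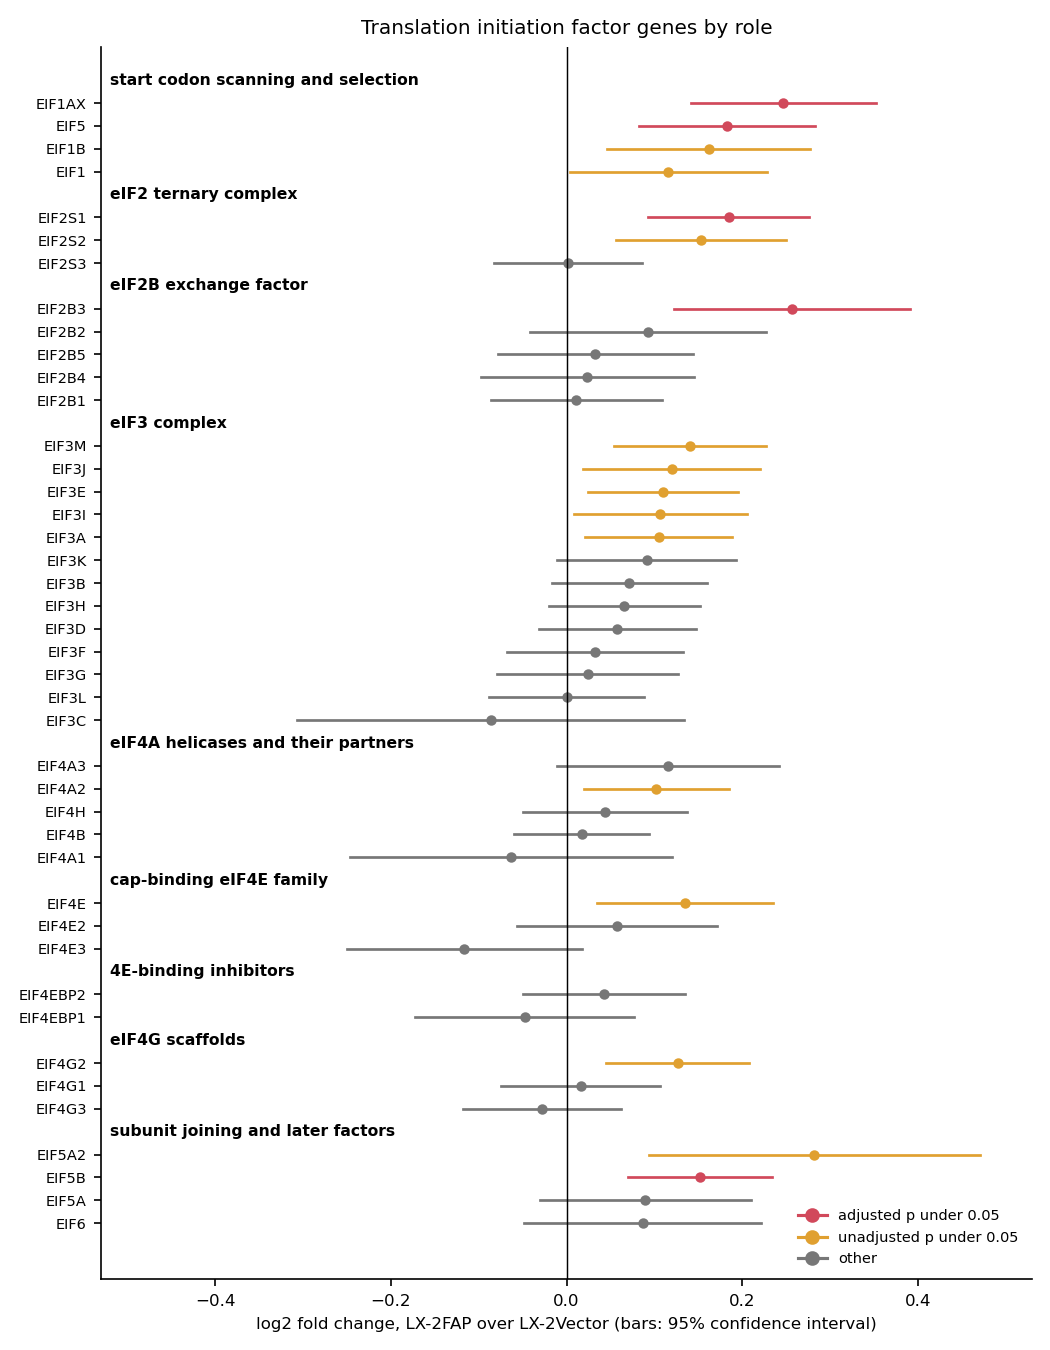
Log2 fold change of each of the 42 initiation factor genes in LX-2FAP over LX-2Vector, by role, with 95% confidence intervals from the edgeR fit. The 5 called genes lie between 0.15 and 0.26, and no interval of a gene below 0 excludes 0.

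The promoters of the 5 called genes are shown because these genes moved in the same direction. RefSeq (GRCh38.p14) gave promoter windows, from 250 bases before to 50 bases after an annotated start, for 35 of the members, with 50 windows in all, so that a gene with several starts counts more than once. The stretch from 100 bases before to 10 bases after each start is printed 5′ to 3′ on the strand of the gene, and capitals mark matches to the NRF1 motif searched as GCGCNTGCG on both strands. The windows are chrX:20141829-20141938 (minus strand) for EIF1AX, chr14:67360228-67360337 (plus) for EIF2S1, chr1:44986586-44986695 (minus) for EIF2B3, chr14:103334137-103334246 and chr14:103334788-103334897 (plus) for EIF5 and chr2:99337289-99337398 (plus) for EIF5B.
EIF1AX: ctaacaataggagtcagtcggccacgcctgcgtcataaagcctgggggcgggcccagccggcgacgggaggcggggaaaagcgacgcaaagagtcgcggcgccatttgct
EIF2S1: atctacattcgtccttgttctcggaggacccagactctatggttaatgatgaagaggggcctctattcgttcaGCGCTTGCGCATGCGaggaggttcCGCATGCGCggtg
EIF2B3: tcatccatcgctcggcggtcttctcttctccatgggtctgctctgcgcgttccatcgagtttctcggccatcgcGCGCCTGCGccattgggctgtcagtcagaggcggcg
EIF5, start 1: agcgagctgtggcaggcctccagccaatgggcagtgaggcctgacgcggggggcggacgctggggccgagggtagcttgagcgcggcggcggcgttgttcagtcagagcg
EIF5, start 2: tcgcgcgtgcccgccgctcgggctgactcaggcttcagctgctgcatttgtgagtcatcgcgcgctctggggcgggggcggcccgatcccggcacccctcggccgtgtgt
EIF5B: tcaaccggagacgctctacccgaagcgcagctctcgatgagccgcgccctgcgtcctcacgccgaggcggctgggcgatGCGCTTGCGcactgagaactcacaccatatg

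The NRF1 motif was matched in the windows of 3 of the 5 called genes. In EIF2S1 the matches began 27, 21 and 3 bases before the start, in EIF2B3 26 bases before it and in EIF5B 21 bases before it. Over all windows of the members, 9 of 50 held a match, that is 18%, where 7.47% of all 35114 windows of this length did, and the 9 genes with a match (EIF1, EIF2B3, EIF2B5, EIF2S1, EIF3K, EIF4G1, EIF4H, EIF5A and EIF5B) had a median log2 fold change of 0.091, close to the 0.09 of the 35 genes with a window. The other motifs, searched on both strands, were CACGTG (E-box, 20% of the members' windows against 7.26% of all), CCGGAAG (ETS, 20% against 10.3%), GGGCGG (SP1, 70% against 45%), AAGATGGCG (YY1, 6% against 1.75%) and TATAAA (2% against 11.5%). In the called genes, EIF2B3 held an E-box and the second EIF5 window a YY1 match outside the printed stretch, and 1 pair of matches to different motifs overlapped among the members' windows. SP1, which is not marked in the printed stretches, was matched in 4 of the 6 windows of the called genes, and NRF1 in 3. These matches describe the letters only, and the windows were not matched on GC content.

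Many mRNAs of the translation machinery begin at a C followed by a run of pyrimidines, the feature through which mTORC1 controls their translation. An annotated start at C with an unbroken run of at least 5 pyrimidines was found in 7 of the 50 windows, that is 14%, and in 4.07% of all windows. The runs are printed in capitals, from 5 bases before to 20 bases after the start, for EIF2S3 (chrX:24054951-24054975, plus strand), EIF3D (chr22:36529147-36529171, minus), EIF3F (chr11:7987332-7987356, plus), EIF3K (chr19:38619183-38619207, plus), EIF3M (chr11:32583826-32583850, plus), EIF4A2 (chr3:186783572-186783596, plus) and EIF4B (chr12:53006451-53006475, plus), because genes with and without such a start were compared.
EIF2S3: ccttcCTCTTTTggcaacatggcgg
EIF3D: gtttcCTCTTTTCCTggtttctcaa
EIF3F: gcctcCTTCTTTCTCgacaagatgg
EIF3K: accacCTCTTCCTgttcccgtcctt
EIF3M: gttccCTTTTCCggtcggcgtggtc
EIF4A2: gctgtCTTTTCagtcgggcgctgag
EIF4B: cgggtCTTTTgcgttctctttccct

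None of the 7 genes with a pyrimidine start was among the called genes. Their log2 fold changes ran from 0.0016 to 0.14 with a median of 0.058, and those of the 28 other genes with a window ran from -0.12 to 0.28 with a median of 0.091. The ranges overlap, and no test of the difference was made. The annotated starts of the called genes began with a letter other than C.

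The factors of scanning and start codon selection were examined first, and all 4 were higher at an unadjusted p under 0.05. EIF1AX (ENSG00000173674, GRCh38 chromosome X, 20124518 to 20141844), which encodes eIF1A on the X chromosome, had 170.1, 186.4 and 177.8 CPM in replicates 1 to 3 of LX-2Vector against 197.1, 214.2 and 222.4 CPM in replicates 1 to 3 of LX-2FAP. Every LX-2FAP library lay above every LX-2Vector library, from 178.1 ± 8.17 to 211.2 ± 12.9 CPM (SD, n = 3 each), with a log2 fold change of 0.25 (SE 0.05, adjusted p = 0.014 by edgeR). EIF5 (ENSG00000100664, chromosome 14, 103333544 to 103345025), whose product makes eIF2 hydrolyse its GTP once a start codon is found, had 376.8, 403.3 and 367.9 CPM in the LX-2Vector libraries against 407.1, 453.1 and 442.9 CPM in those of LX-2FAP. The groups stood apart by less than the spread within either, and the log2 fold change was 0.18 (SE 0.047, adjusted p = 0.0361 by edgeR).

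EIF1 and EIF1B encode eIF1, which keeps the ribosome scanning until it meets a proper start codon, and neither passed the adjusted test. EIF1B had 35.62, 37.38 and 36.81 CPM in the LX-2Vector libraries against 39.93, 40.7 and 42.1 CPM in those of LX-2FAP, so the groups did not overlap (log2 fold change 0.16 with an SE of 0.054, adjusted p = 0.0916 by edgeR). EIF1, with the highest deposited FPKM of all members (128.3 over the 6 libraries), had 466.6, 452.6 and 422.3 CPM in the LX-2Vector libraries against 445.7, 521.2 and 487.3 CPM in those of LX-2FAP. These groups overlapped, since LX-2FAP replicate 1 lay within the controls (log2 fold change 0.12 with an SE of 0.053, adjusted p = 0.21 by edgeR). The ratio of EIF1B to EIF1, in FPKM, was 0.157 ± 0.0104 in LX-2Vector and 0.162 ± 0.0114 in LX-2FAP and overlapped between the groups.

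eIF2 is a trimer, and 1 of its 3 subunit genes was called, while differences between the subunits were not tested. EIF2S1 (ENSG00000134001, chromosome 14, 67359997 to 67386516), the α subunit that is phosphorylated under stress to curb initiation, had 270.1, 285.4 and 274.4 CPM in the LX-2Vector libraries against 297.9, 326.6 and 318.7 CPM in those of LX-2FAP. The groups did not overlap, and the log2 fold change was 0.18 (SE 0.043, adjusted p = 0.0252 by edgeR). EIF2S2, the β subunit, had 207.4, 205.7 and 193.8 CPM in the LX-2Vector libraries against 215, 237.5 and 223 CPM in those of LX-2FAP, which also stood apart, at an adjusted p just above the threshold (log2 fold change 0.15 with an SE of 0.046, adjusted p = 0.0601 by edgeR). EIF2S3, the γ subunit that holds GTP and the tRNA, had 268.5, 264.2 and 275.5 CPM in the LX-2Vector libraries against 277.6, 262.3 and 269.1 CPM in those of LX-2FAP. The EIF2S3 groups lay on top of each other, with a log2 fold change of 0.0016 and a 95% confidence interval from -0.082 to 0.086. In FPKM, the ratio of EIF2S1 to EIF2S3 was 0.788 ± 0.0352 in LX-2Vector and 0.896 ± 0.0668 in LX-2FAP and that of EIF2S2 to EIF2S3 was 1.2 ± 0.0665 and 1.33 ± 0.105 (SD, n = 3 each), and both ratios overlapped between the groups, because LX-2FAP replicate 1 lay within the range of the controls or at its edge. Of the sequence words of 75 bases in these transcripts, 18.5% of EIF2S2 and 15.1% of EIF2S3 also occur in other genes, mostly a pseudogene and the gene EIF2S3B, so that their counts are less certain than those of EIF2S1.

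eIF2B, the exchange factor that recharges eIF2 and is the target of phosphorylated eIF2α, has 5 subunits, and EIF2B3 alone was called among their genes. EIF2B3 (ENSG00000070785, chromosome 1, 44850522 to 44986722), the γ subunit, had 34.03, 33.68 and 29.53 CPM in the LX-2Vector libraries against 38.01, 39.2 and 39.05 CPM in those of LX-2FAP. All 3 LX-2FAP libraries lay above the controls, and the log2 fold change of 0.26 was the largest among the called members (SE 0.063, adjusted p = 0.0309 by edgeR). The other subunit genes, EIF2B1, EIF2B2, EIF2B4 and EIF2B5, had log2 fold changes of 0.011 to 0.093 and overlapped between the groups. EIF2B1, the highest of the 5 by deposited FPKM, had 78.69, 78.64 and 76.21 CPM in the LX-2Vector libraries against 75.64, 80.84 and 79.05 CPM in those of LX-2FAP. The difference between EIF2B3 and its partners was not tested. Exons on the other strand overlap 10.2% of EIF2B3, 15.6% of EIF2B1 and 23.6% of EIF2B2, and whether the counting used strand is not given in the sources used here.

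**Figure D2:**
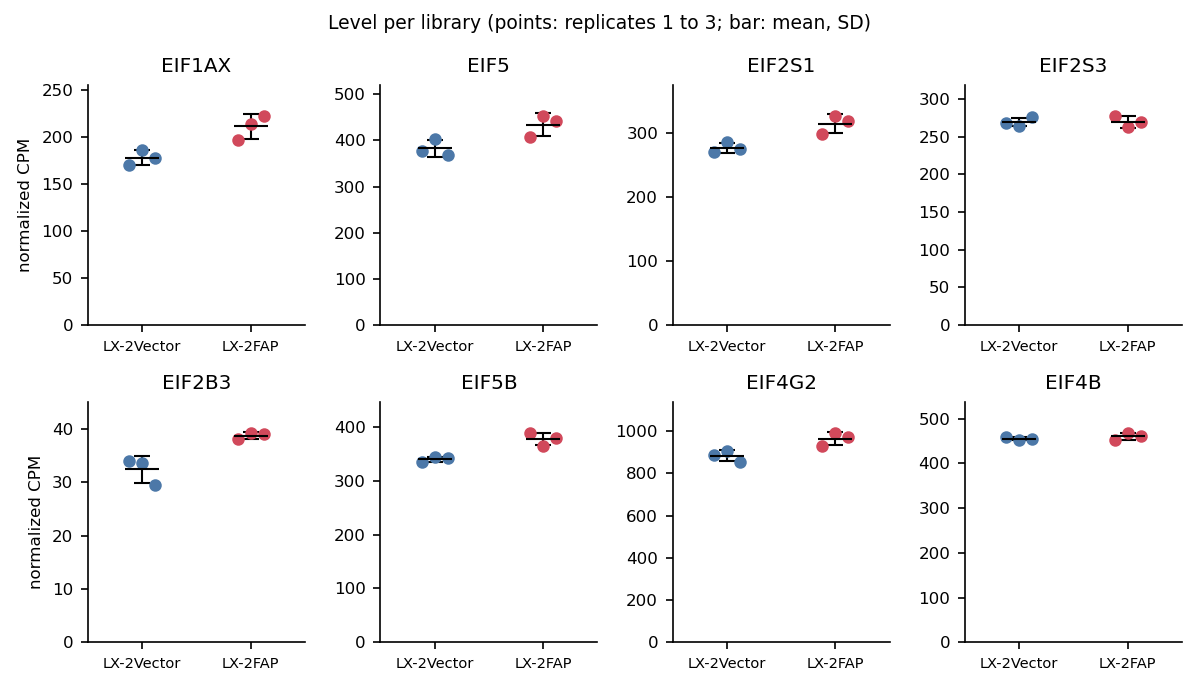
Normalized CPM in each library for the 5 called genes (EIF1AX, EIF5, EIF2S1, EIF2B3 and EIF5B) and for EIF2S3, EIF4G2 and EIF4B, with the mean and SD of each group (n = 3). In the called genes each LX-2FAP point lies above each LX-2Vector point, and in EIF2S3 and EIF4B the groups overlap, with log2 fold changes of 0.0016 and 0.017.

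eIF3, the largest initiation factor, holds the small subunit and contacts eIF4G, and none of its 13 subunit genes was called. Of them, 5 were higher at an unadjusted p under 0.05, namely EIF3A, EIF3E, EIF3I, EIF3J and EIF3M, 11 of 13 had a positive log2 fold change, and the median was 0.071. Among all tested genes, 10.5% were higher at an unadjusted p under 0.05 and 47% had a positive log2 fold change. EIF3M, a subunit of the core of the complex, came nearest to the threshold with 108.2, 107.1 and 106.4 CPM in the LX-2Vector libraries against 116.2, 118.2 and 120.4 CPM in those of LX-2FAP. The gap between the EIF3M groups was several times the SD of either (log2 fold change 0.14 with an SE of 0.041, adjusted p = 0.0562 by edgeR). EIF3A, the large core subunit and the highest of the 13 by deposited FPKM, had 424.4, 434.7 and 418.8 CPM in the LX-2Vector libraries against 444.2, 476.7 and 453.6 CPM in those of LX-2FAP. EIF3E had 136, 136.2 and 137.1 CPM in the LX-2Vector libraries against 150, 143.4 and 148 CPM in those of LX-2FAP. EIF3A and EIF3E did not overlap between the groups and had edgeR adjusted p-values of 0.125 and 0.118. EIF3J, the loosely bound subunit that reaches into the decoding site, had 94.74, 91.46 and 87.45 CPM in the LX-2Vector libraries against 95.08, 102.5 and 100.2 CPM in those of LX-2FAP. EIF3I had 213.4, 202.6 and 190.5 CPM in the LX-2Vector libraries against 213.3, 225.9 and 214.2 CPM in those of LX-2FAP. EIF3J stood apart only narrowly and EIF3I overlapped, with edgeR adjusted p-values of 0.147 and 0.187.

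The remaining eIF3 genes, EIF3B, EIF3C, EIF3D, EIF3F, EIF3G, EIF3H, EIF3K and EIF3L, had log2 fold changes of -0.087 to 0.091. EIF3L was at 133 ± 3.32 CPM in the LX-2Vector libraries against 133 ± 2.43 CPM in those of LX-2FAP (SD, n = 3 each). EIF3C, the lowest, had 17.49 to 19.94 CPM in the LX-2Vector libraries against 15.37 to 21.18 CPM in those of LX-2FAP, and since 96% of its sequence words also occur in the near-identical gene EIF3CL, its count is uncertain. In deposited FPKM, the 13 genes ran from 2.6 to 62.1 FPKM although their products sit together in a single complex. This order is partly set by the gene lengths behind the deposited FPKM values, which were 37761 bases for EIF3E and 9756 bases for EIF3I, where their principal transcripts in GENCODE 29 are 1543 and 1458 bases long. In CPM per kilobase of principal transcript, EIF3I (144) and EIF3E (91.7) stood above EIF3A (66.3). Over all members EIF4G2 (468) and EIF5A (209) stood above EIF1 (199). The value for EIF4G2 rests on a principal transcript of 1969 bases, where its deposited length is 8485 bases. Neither order of levels is therefore settled.

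The cap-binding and unwinding arm held no called gene. EIF4E, which binds the cap and is the target of the 4E-binding inhibitors, had 65.75, 66.56 and 65.16 CPM in the LX-2Vector libraries against 70.42, 70.89 and 75.42 CPM in those of LX-2FAP. Its groups did not overlap, at a log2 fold change of 0.13 (SE 0.047, adjusted p = 0.103 by edgeR). EIF4E3, a relative that binds the cap in another way, was the single member whose libraries all lay lower in LX-2FAP, with 25.93, 27.35 and 27.83 CPM in the LX-2Vector libraries against 25.62, 24.63 and 24.39 CPM in those of LX-2FAP (log2 fold change -0.12 with an SE of 0.063, adjusted p = 0.295 by edgeR). EIF4E2, which represses the mRNAs it binds, overlapped between the groups at a log2 fold change of 0.057. Over the 42 members, 18 had all LX-2FAP libraries above all LX-2Vector libraries and 1 had them all below, where this held for 13% and 13.4% of all tested genes.

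The inhibitors EIF4EBP1 and EIF4EBP2, which sequester eIF4E until mTORC1 phosphorylates them, did not pass the test in either direction. EIF4EBP1 had 63.13, 54.82 and 55.76 CPM in the LX-2Vector libraries against 57.91, 53.87 and 56.57 CPM in those of LX-2FAP, and EIF4EBP2 had 148.1 ± 5.74 and 152.7 ± 4.05 CPM (SD, n = 3 each). Set against EIF4E in FPKM, EIF4EBP1 had ratios of 5.42, 4.65 and 4.83 in LX-2Vector and 4.65, 4.29 and 4.24 in LX-2FAP, and EIF4E3 had ratios of 0.181, 0.189 and 0.197 in LX-2Vector and 0.167, 0.16 and 0.149 in LX-2FAP. The EIF4E3 ratio was lower in every LX-2FAP library, and the EIF4EBP1 ratio nearly touched between the groups. The ratio of EIF4EBP2 to EIF4E overlapped, at 1.49 ± 0.0509 in LX-2Vector and 1.4 ± 0.0572 in LX-2FAP. The fall in the EIF4EBP1 ratio was not kept in the fit with the GC trend removed, described below. There the log2 fold change was 0.095 for EIF4EBP1 and 0.071 for EIF4E. The ratios were not tested, since an exact permutation test, which was not run, cannot give a 2-sided p below 0.1 with 3 libraries against 3.

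None of the 3 eIF4G scaffold genes was called, and EIF4G2 was the member of the group at an unadjusted p under 0.05. EIF4G2, also called DAP5, lacks the eIF4E-binding part and serves initiation that does not need eIF4E, and it had the highest CPM of all members. It had 889.4, 906.3 and 854.4 CPM in the LX-2Vector libraries against 930.1, 990.6 and 972.1 CPM in those of LX-2FAP, which did not overlap (log2 fold change 0.13 with an SE of 0.039, adjusted p = 0.0658 by edgeR). EIF4G1, the main scaffold of eIF4F, was at 415.6 ± 22.4 CPM in the LX-2Vector libraries against 420.5 ± 6.25 CPM in those of LX-2FAP, and EIF4G3 at 196.9 ± 4.07 and 193 ± 8.04 CPM (SD, n = 3 each). In FPKM, the ratio of EIF4G2 to EIF4G1 was 2.08, 2.28 and 2.22 in LX-2Vector and 2.32, 2.41 and 2.37 in LX-2FAP, which stood apart. The principal transcripts had a GC content of 49% for EIF4G2 and 57.2% for EIF4G1. In the fit with the GC trend removed, described below, the log2 fold change was 0.075 for EIF4G2 and 0.097 for EIF4G1. The ratio was not tested, nor was any part of GC content in it.

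Among the eIF4A helicases, EIF4A2 was higher at an unadjusted p under 0.05 alone. EIF4A2 had 294, 303.4 and 290.8 CPM in the LX-2Vector libraries against 308.6, 324.2 and 320.6 CPM in those of LX-2FAP (log2 fold change 0.1 with an SE of 0.039, adjusted p = 0.133 by edgeR). EIF4A3, the helicase of the exon junction complex, overlapped between the groups at a log2 fold change of 0.12. EIF4A1, the main helicase of eIF4F, was at 10.9 ± 0.613 CPM in the LX-2Vector libraries against 10.5 ± 0.236 CPM in those of LX-2FAP (SD, n = 3 each), but all of its sequence words, 100% of them, occur in other annotated genes as well, 82.8% in the readthrough gene SENP3-EIF4A1, so this level cannot be read as that of the helicase. EIF4H, the highest of the group by deposited FPKM, had 497.5, 478 and 467.7 CPM in the LX-2Vector libraries against 465.3, 516.4 and 506.2 CPM in those of LX-2FAP, which overlapped. EIF4B, which helps the helicase, had the smallest error of all members, and its log2 fold change of 0.017 had a 95% confidence interval from -0.06 to 0.094.

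The last steps of initiation brought the fifth called gene. EIF5B (ENSG00000158417, chromosome 2, 99337353 to 99401326), the GTPase that joins the large subunit, had 333.9, 342.9 and 341.6 CPM in the LX-2Vector libraries against 387.9, 364.5 and 378.7 CPM in those of LX-2FAP. The gap between the groups was larger than the SD of either, and the log2 fold change was 0.15 (SE 0.039, adjusted p = 0.0347 by edgeR). EIF5A2, a relative of the elongation helper EIF5A, had the largest log2 fold change of all members, 0.28, but at a low level, with 14.42, 16.18 and 16.5 CPM in the LX-2Vector libraries against 16.81, 20.18 and 20.29 CPM in those of LX-2FAP. LX-2FAP replicate 1 lay close to the controls, the SE was 0.089 and the edgeR adjusted p was 0.0731. EIF5A, the highest of this group by deposited FPKM (117.9), had 332.9, 305.4 and 283.6 CPM in the LX-2Vector libraries against 304.1, 346 and 331.8 CPM in those of LX-2FAP, which overlapped (log2 fold change 0.09). EIF6, which keeps the subunits from joining too early, also overlapped between the groups, at a log2 fold change of 0.087. Exons of REV1 on the other strand overlap 10.8% of EIF5B.

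**Figure D3:**
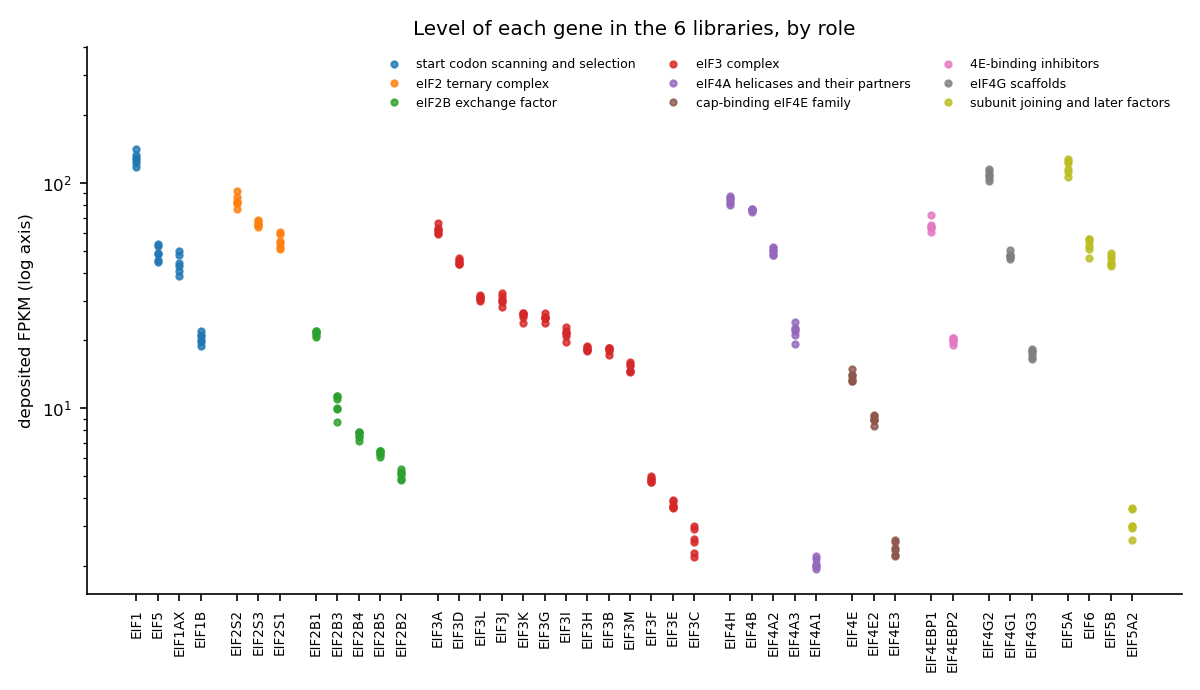
Deposited FPKM of each of the 42 genes in each of the 6 libraries, on a log axis, by role. The mean levels run from 2.06 FPKM for EIF4A1 to 128.3 FPKM for EIF1, and the 6 points of a gene lie close together beside the differences between genes.

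The size and the calls depended on single libraries. Relative to each gene's own mean, the members' median log2 deviation was 0.0051, -0.039 and -0.077 in LX-2Vector replicates 1 to 3 and 0.012, 0.063 and 0.042 in LX-2FAP replicates 1 to 3, so LX-2Vector replicate 1 and LX-2FAP replicate 1 lay closest to each other. The members took 0.793%, 0.792% and 0.763% of all counts in LX-2Vector and 0.797%, 0.836% and 0.821% in LX-2FAP. The number of called members was 2 without LX-2Vector replicate 1, 4 without replicate 2 and 1 without replicate 3, and it was 9 without LX-2FAP replicate 1, 0 without replicate 2 and 0 without replicate 3. The share of all tested genes called higher moved with these counts and was, in the same order, 0.94%, 1.74%, 1.16%, 4.75%, 0.346% and 0.0744%. In the edgeR fits that gave 0 calls, 13 and 10 members had an unadjusted p under 0.05, of which 12 and 10 were higher. The share of all tested genes at an unadjusted p was not counted in these fits, so these counts have no background beside them.

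Each of the 5 calls was lost in at least 2 of the fits that left out 1 library. EIF1AX was called in 4 of the 6 such fits and lost without LX-2FAP replicate 2 (edgeR adjusted p = 0.0638) or replicate 3 (0.119). EIF2B3 was called in 3 of the 6 fits, and its adjusted p was 0.104 when LX-2Vector replicate 3 was left out, 0.113 for LX-2FAP replicate 2 and 0.158 for LX-2FAP replicate 3. EIF2S1 and EIF5 were called in 2 fits each, those without LX-2Vector replicate 2 or LX-2FAP replicate 1. Without LX-2Vector replicates 1 and 3 and LX-2FAP replicates 2 and 3 in turn, the adjusted p was 0.0693, 0.0603, 0.129 and 0.155 for EIF2S1 and 0.0895, 0.111, 0.17 and 0.194 for EIF5. EIF5B was called in none of the 6, with adjusted p-values of 0.0542 to 0.18. The log2 fold changes of the called genes stayed positive throughout, between 0.21 and 0.3 for EIF1AX and between 0.13 and 0.18 for EIF5B.

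**Figure D4:**
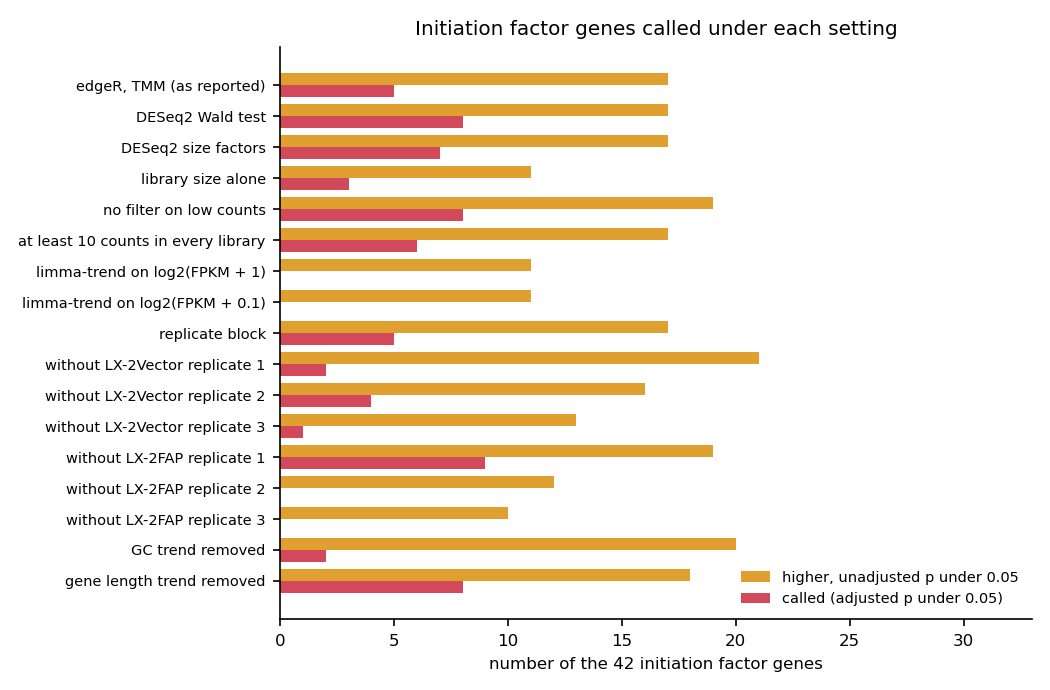
Number of the 42 genes called at an adjusted p under 0.05 and number higher at an unadjusted p under 0.05, for the reported edgeR fit and 16 other settings. Called genes run from 0 to 9 and genes higher at an unadjusted p from 10 to 21. The share of all tested genes at an unadjusted p was counted in the reported fit alone.

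The median log2 fold change of the members was positive under each scaling, although the number of positive members moved. Of 42 members, 36 had a positive log2 fold change with TMM normalization, 37 with DESeq2 size factors, 30 with library size alone and 30 in limma-trend on log2(FPKM + 1), which uses the library size through the FPKM. With TMM, 47% of all tested genes had a positive log2 fold change. The median over all tested genes moved with the scaling too, and was -0.013, -0.0055, -0.041 and -0.0235 in the same order. The members that lay near 0 changed sign between these scalings, and they include EIF2S3, EIF4B and EIF4G1. Limma-trend called 0 members with either pseudocount, but it called 1 gene higher among all tested genes (0.00547%), so this count says nothing of the members in particular. In both limma-trend fits 11 members had an unadjusted p under 0.05, all of them higher. The share of all tested genes at that threshold was not counted there. The DESeq2 Wald test called 8 members, that is the 5 genes with EIF2S2, EIF3M and EIF4G2, and it called 3.36% of all tested genes higher. A cutoff named in the study, an unadjusted p under 0.05 with a fold change over 1.2, was met by 1 of the 42 members (2.38%). Counted in either direction, 1441 of all tested genes (7.89%) met it, a larger share, but 6.44% of all tested genes did so by being lower. The member was EIF5A2, which was higher in LX-2FAP, a direction in which 1.45% of all tested genes met the cutoff.

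The change moved with the GC content of the transcripts. Over the 42 members, the log2 fold change and the GC content of the principal transcript had a Pearson r of -0.433 and a Spearman rho of -0.456. This is a description over genes that share the same 6 libraries. Over 17929 tested genes, with the GC content of each gene's longest transcript instead, r was -0.286 and rho -0.363. The members and all tested genes were thus not measured alike. The trend removed next was also taken on the longest transcript. The called members had a GC content of 35.1% to 47.6% with a median of 39.2%, and the 37 others 34.3% to 65.5% with a median of 46.4%. With the trend on GC content removed from each library, EIF2B3 (log2 fold change 0.27, edgeR adjusted p = 0.0318) and EIF3B (0.14, 0.0464) were called. The other 4 genes then had log2 fold changes of 0.16 for EIF1AX (adjusted p = 0.0525), 0.12 for EIF2S1 (0.0872), 0.14 for EIF5 (0.0891) and 0.087 for EIF5B (0.184). In that fit 21 members had an unadjusted p under 0.05, of which 20 were higher, and 36 had a positive log2 fold change. EIF4E3, a member below 0, was at -0.19 there (adjusted p = 0.0825 by edgeR). Of all tested genes 1.37% were called higher in that fit, and their share at an unadjusted p was not counted. The median log2 fold change there was 0.079 over the members and 0.00024 over all tested genes. Whether base composition of the libraries had a part in the calls was not tested beyond this correction.

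**Figure D5:**
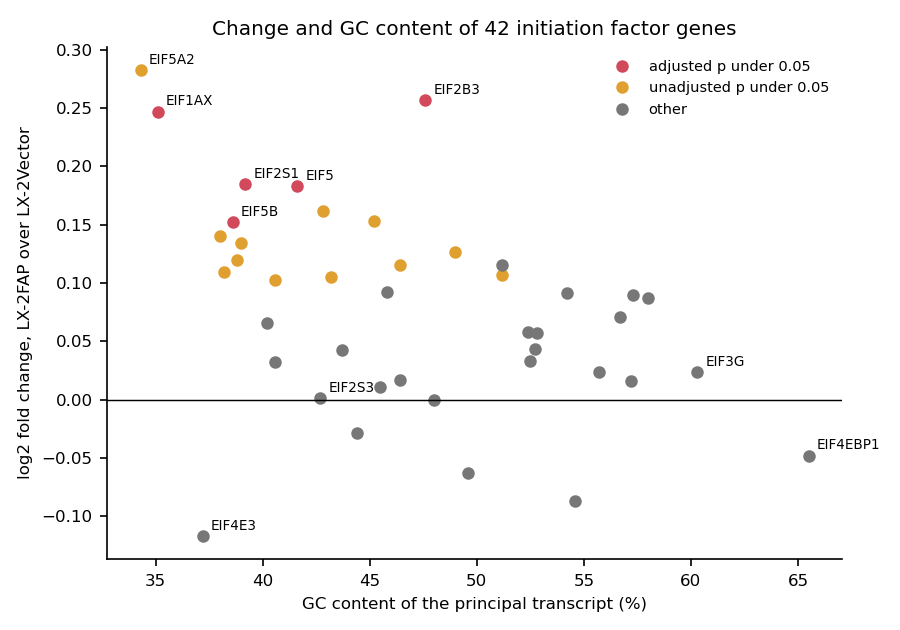
GC content of the principal transcript against the log2 fold change in LX-2FAP over LX-2Vector, 1 point per gene for the 42 members. Called genes other than EIF2B3 lie below 42% GC, and EIF4EBP1, with 65.5%, has the highest GC content.

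Genes that act around these factors were counted from a list of 57 regulators and partners, of which 55 passed the filter. The list was chosen with earlier results of these data known, so its share of calls cannot show that it stands out. Of these, 4 were called higher and 0 lower, that is 7.27% of the 55, where 2.57% of all tested genes were called higher, and 14 were higher and 5 lower at an unadjusted p under 0.05, with a median log2 fold change of 0.029. The called genes were ABCE1, the ATPase that splits the subunits after termination, with 125.5, 133 and 124.4 CPM in the LX-2Vector libraries against 147.2, 146.1 and 151.2 CPM in those of LX-2FAP (log2 fold change 0.22 with an SE of 0.043, adjusted p = 0.0129 by edgeR), and DHX29, a helicase that helps scanning through structured leaders, with 97.54, 104.8 and 105.6 CPM and 119.2, 116.3 and 125.6 CPM (0.23, SE 0.047, adjusted p = 0.0151). BZW1, a mimic of eIF5, rose from 527 ± 25.9 to 608.9 ± 25.2 CPM (log2 fold change 0.21, edgeR adjusted p = 0.017), and the helicase DDX3X rose from 675.2 ± 17.5 to 748.4 ± 16 CPM (0.15, edgeR adjusted p = 0.0317; SD, n = 3 each). The groups did not overlap for any of these 4 genes. The number called was 8 without LX-2FAP replicate 1, 2 without replicate 2 and 0 without replicate 3. By role, 0 of 10 genes of the eIF2α kinases and phosphatases, 2 of 16 cap-complex partners, 0 of 10 genes of the mTORC1 pathway, 2 of 7 other initiation and recycling factors, 0 of 9 elongation factors and 0 of 3 termination factors were called.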

How the data were processed

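RNA was sequenced in 6 libraries of LX-2 cells. Per the submitters' processing notes, reads were aligned with HISAT2 2.0.5 and counted with featureCounts 1.5.0-p3, and hg18 is the build named. The annotation release and whether counting used strand are not given in the sources used here, and the methods name both poly(A) isolation and ribosomal RNA depletion. The authors deposited whole-number counts per gene, not normalized, and FPKM values computed by the authors from gene length and count.

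Here edgeR 4.0.16 was run on the counts (quasi-likelihood test, TMM, filterByExpr with a minimum count of 10 and a minimum total of 15, no covariates). Benjamini-Hochberg adjustment covered the 18275 genes kept, and calls were made at an adjusted p under 0.05. CPM are TMM-normalized, ratios of genes were taken from FPKM, and p-values are 2-sided. Standard errors were derived from the test statistic. The test was run on simulated counts of independent libraries with planted changes of 1.2-fold or more. Those changes are larger than those of the called members, so the check does not cover changes as small as theirs. Pairs of replicates had a chi-square of 2.05 to 4.88 per degree of freedom, above counting noise, so none was merged.

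The member genes, the list of regulators and the cell type markers were chosen with earlier results of these data known. Members called, those at an unadjusted p under 0.05 and the highest of each role by FPKM were given by library, and regulators were named where called. Coordinates, transcript lengths, GC content and words of 75 bases shared between genes came from GENCODE 29 (GRCh38), and promoters from RefSeq. Only 7 of the 42 deposited gene lengths equal the merged exon length in that release.

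Alternatives were the DESeq2 1.42.0 Wald test and size factors, library size alone, other filters, limma-trend (limma 3.58.1) on log2(FPKM + 1) and log2(FPKM + 0.1), a replicate block, each library left out, other thresholds and, chosen after seeing the data, removal of a loess trend (span 0.5) on GC content or length. These trends used each gene's longest transcript. The labels give no batch.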

Additional observations from a re-analysis of the deposited data

How the results depend on the processing

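The 5 calls among the initiation factor genes became 8 with the DESeq2 Wald test, with no filter and with the gene length trend removed, 3 with library size alone, 2 with the GC trend removed and 0 with limma-trend, and ran from 0 to 9 as each library was left out. At an adjusted p under 0.01 and under 0.1 they were 0 and 10, and 1 gene, EIF5A2, met an unadjusted p under 0.05 with a fold change over 1.2. The same counts hold for genes called higher, and 0 were called lower throughout. For the regulators, 4 calls became 7 (DESeq2), 8 (no filter), 0 (limma-trend), 2 (GC trend removed), 0 and 9 (adjusted p under 0.01 and 0.1) and 1 (fold change over 1.2), and 0 to 8 with a library left out. For all genes, 967 became 1606 with no filter, 2 with limma-trend, 454 with the GC trend removed, 116 and 1992 at 0.01 and 0.1, 1441 at the fold change cutoff, and 26 to 1949 with a library left out. The members' median log2 fold change stayed between 0.055 and 0.1. FAP stayed between 6.27 and 8.45. The cause of these differences was not tested.

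Reversals, 38 in all, touched 9 genes that were not called, and 33 members never reversed. With library size alone and limma-trend with pseudocounts of 1 and 0.1, log2 fold changes were -0.027, -0.027 and -0.027 for EIF2S3, -0.018, -0.016 and -0.017 for EIF2B1, -0.0047, -0.0021 and -0.0023 for EIF2B4, -0.0047, -0.00048 and -0.00045 for EIF3G, -0.012, -0.011 and -0.011 for EIF4B and -0.013, -0.011 and -0.011 for EIF4G1. With the GC trend removed they were -0.032 for EIF2S3, -0.019 for EIF3F, 0.095 for EIF4EBP1 and 0.021 for EIF3L. EIF3L was 0.0067 with both DESeq2 settings, 0.0012 with at least 10 counts in every library, 0.00024 with the replicate block and 0.014 with the length trend removed. With a library left out, values ran from -0.018 to 0.025 (EIF2S3), -0.0087 to 0.0398 (EIF2B1), -0.014 to 0.055 (EIF2B4), -0.0095 to 0.0697 (EIF3G), -0.013 to 0.022 (EIF3L), -0.077 to 0.024 (EIF4EBP1) and -0.0093 to 0.062 (EIF4G1).

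Same-numbered libraries did not deviate together (correlations -0.039, 0.044 and -0.0096, where other pairs ran from -0.11 to 0.12). No pairing by number was seen, but with 3 libraries in each group this check cannot exclude it. The fit with the replicate number as a block called 5 members, the same 5 genes. The members' standard errors were 0.036 to 0.1 on the log2 scale, and changes smaller than these could not be told from the spread between libraries. Changes of more than 1 SE could also miss the call, as EIF4G2 did at 0.13 with an SE of 0.039 (adjusted p = 0.0658 by edgeR).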

Other observations

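The deposited gene lengths behind the FPKM values differ from the principal transcripts by a factor of 0.431 to 24.5 over the 42 members, so the order of levels within a complex follows the length table as well as the counts. Counts of near-copies were found beside several members, with 203 to 287 counts for EIF3CL, 194 to 326 for EIF5AL1 and 100 to 179 for EIF2S3B in the 6 libraries.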
